A study of Mus musculus with 3 samples.

Results

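Cdkn1a and 5 further stress genes linked to the tumour suppressor p53 were followed in single cells of the mouse brain after a brief closure of a cerebral artery. The 6 genes are Cdkn1a, Mdm2, Ccng1, Gadd45a, Sesn1 and Ddit4, of 32285 genes in the count files, and all 6 were found there by symbol. They were chosen by name, and the choice was selected on the level of Cdkn1a in oligodendrocyte-like cells of the 24 h library against the control library. Every value of that contrast is therefore a description of these libraries. The questions were whether other p53 targets went with the high Cdkn1a level, in which share of the cells it was found, and what was left of it at 3 d.

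p53 is a transcription factor that is kept low by its own target Mdm2 and is stabilised when DNA is damaged or cells are otherwise stressed. It then switches on genes that stop the cell cycle, repair DNA, slow growth or, under heavier damage, start cell death. Cdkn1a encodes p21, an inhibitor of cyclin-dependent kinases that is the best known of these targets, although other transcription factors, the glucocorticoid receptor among them, can also raise it. Oligodendrocytes are the myelin-forming cells of the brain and do not divide once mature.

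Single-cell RNA sequencing (10x Genomics, 3′ end, v3.1) counted unique molecular identifiers (UMIs, 1 for each captured RNA molecule) in live brain cells of 3 groups. All mice had the genotype WT and the strain C57BL6J, and the methods of the study give 10 to 12 weeks of age. The study names male mice for the cells compared here, while the labels give no sex. Control mice were naive. The treated mice were taken 24 h or 3 d after closure of the middle cerebral artery with a filament for 5 min, called a transient ischaemic attack (TIA) in the design text and labelled 24h post stroke and 3d post stroke. Cells of 3 mice were pooled into 1 library in each group, so the mice cannot be told apart and no difference has a replicate check. Intervals in what follows are exact 95% intervals and cover counting error only. Tissue came from the hemisphere on the side of the closure, white matter and meninges had been taken off, and cells negative for propidium iodide had been sorted after papain digestion and removal of dead cells.

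The deposited libraries held 4804 cells and 37987228 UMIs in the control, 1619 cells and 12919691 UMIs at 24 h, and 5505 cells and 48636436 UMIs at 3 d. Cells with at least 500 detected genes and at most 7% mitochondrial UMIs were kept, which left 4018, 1225 and 4781 cells with median depths of 7750, 8123 and 7868 UMIs. The 24 h library stood apart from the other libraries. It had the fewest cells, 21.0% of its cells lay over the mitochondrial limit against 11.8% in the control and 11.4% at 3 d, and its oligodendrocyte-like cells held nearly no haemoglobin RNA. Haemoglobin and Alas2 UMIs summed to 14.1 per 1000000 UMIs (CPM) in oligodendrocyte-like cells at 24 h, against 6566 CPM in the control and 4817 CPM at 3 d. Every value at 24 h rests on that library and cannot be told apart from it, while the comparison of 3 d with the control does not use it. The control shared 3 cell barcodes with the 24 h library and 8 with the 3 d library, and 4 were shared by the latter libraries.

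Cell classes were named from marker genes, so they are called oligodendrocyte-like and so on. The oligodendrocyte-like class was 1 cluster of 554 cells that held its markers, among them Mog, Mag and Mobp. It had 232 cells in the control, 72 at 24 h and 250 at 3 d, with median depths of 13417, 16150.5 and 12901 UMIs and median mitochondrial shares of 4.86%, 5.31% and 4.83%. In that order Mog was at 1178, 1158 and 1377 CPM, Mag at 1763, 1617 and 1740 CPM and Mobp at 1877, 2961 and 2940 CPM, so these 3 stayed within 2-fold of the control. Opalin, a marker of mature myelinating cells, did not, at 980, 469 and 1135 CPM, a log2 ratio of −1.06 at 24 h.

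Cdkn1a, the inhibitor of the cell cycle, had 1 UMI in the 232 control oligodendrocyte-like cells, 888 UMIs in the 72 cells of the 24 h library and 109 UMIs in the 250 cells at 3 d. These sums are 0.304 CPM (0.00770 to 1.69) in the control, 739 CPM (691 to 789) at 24 h and 31.3 CPM (25.7 to 37.8) at 3 d. The 24 h library was thus high, the 3 d library lay between, and none of the 3 intervals overlap. The log2 ratio to the control was 11.25 (8.77 to 16.55) at 24 h, with its width set by the single control UMI. For 3 d it was 6.69, with 4.18 as the lower end of its interval and an upper end set by the same UMI. The step from 24 h to 3 d, which needs no control cells, was −4.56 (−4.86 to −4.27), so that 0.0423 times the 24 h level was left. Among 8025 genes that reached 50 UMIs in the control and 24 h sums together, Cdkn1a had the highest ratio at 24 h in this class, followed by Plin4 (5.75), Hif3a (4.43), Fkbp5 (4.40), Itgad (4.37), Zfand4 (4.23), Fosb (4.06), Sgk1 (3.97), Phyhd1 (3.68) and Galnt17 (3.64). Plin4 encodes a coat protein of lipid droplets, and Fkbp5 and Sgk1 are well known for rising under glucocorticoids. The 5 lowest were Hbb-bt (−9.70, −15.00 to −7.22, 1 UMI at 24 h), Hba-a1 (−9.57, −12.61 to −7.71, 2 UMIs), Hbb-bs (−9.11), Hba-a2 (−8.13) and Fut9 (−4.81, −10.13 to −2.29, 1 UMI), the first 4 of them haemoglobin chains. Sums of 0 entered this order as bounds. A gene without a UMI at 24 h, such as Ccnd2 (−3.97 or lower), may therefore lie below Fut9. The haemoglobin RNAs and Cdkn1a therefore differed in opposite directions between the control and the 24 h library, and whether either bears on the other was not tested.

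The Cdkn1a UMIs at 24 h were spread over nearly the whole class. In the 24 h library 68 of 72 oligodendrocyte-like cells had at least 1 UMI of Cdkn1a (94.4%, 86.4% to 98.5%), against 1 of 232 in the control (0.431%, 0.0109% to 2.38%) and 52 of 250 at 3 d (20.8%, 15.9% to 26.4%). The median cell at 24 h held 10 UMIs, with quartiles of 5 and 18 and a highest value of 38, and the 5 highest cells held 18.0% of all Cdkn1a UMIs of the class. So the level was not set by a few cells. At 24 h 57 cells (79.2%) had at least 5 UMIs and 38 cells (52.8%) at least 10. At 3 d 198 cells had none, 27 had 1 UMI, 22 had 2 to 4 and 3 had 5 or more, and the 5 highest cells held 25.7%. The lower level at 3 d was thus seen both as fewer cells with the RNA and as fewer UMIs in the cells that had it.

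Such shares also depend on depth. With each cell of at least 2000 UMIs thinned to 2000, the share with Cdkn1a was 0 of 231 cells in the control, which allows up to 1.30% when 0 is set to 3 cells (exact upper limit 1.58%). At 24 h 45 of 71 thinned cells had a UMI (63.4%, 51.1% to 74.5%), and in the 3 d library 18 of 250 had (7.20%, 4.32% to 11.1%). The order of the libraries was the same thinned and unthinned. RNA free in the suspension can give UMIs in any cell, and the immature neuron-like class, which was low in Cdkn1a, is given as the background. There 25 of 768 control cells (3.26%), 2 of 109 at 24 h (1.83%) and 6 of 363 at 3 d (1.65%) had a UMI, at median depths of 6988, 8538 and 8210 UMIs. Thinned, these shares were 0.855%, 0 of 97, which allows up to 3.09% in the same way (exact upper limit 3.73%), and 0.285%. Both oligodendrocyte-like shares after TIA lay above those of the neuron-like cells of the same library with no overlap of the intervals, and the control share did not. As the background class was taken for its low Cdkn1a, this order was partly set beforehand. Full-depth shares in the other compared classes were higher at 24 h and 3 d. At 24 h they were 75.1% in endothelial-like, 29.8% in astrocyte-like, 13.9% in microglia-like and 3.85% in pericyte-like cells. At 3 d, for example, they were 7.69% in microglia-like and 2.14% in pericyte-like cells, and the endothelial-like share lay above the oligodendrocyte-like share. Thinned, 129 of 221 endothelial-like cells had a UMI at 24 h (58.4%), inside the oligodendrocyte-like interval, and 30 of 225 astrocyte-like cells had (13.3%).

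**Figure D1:**
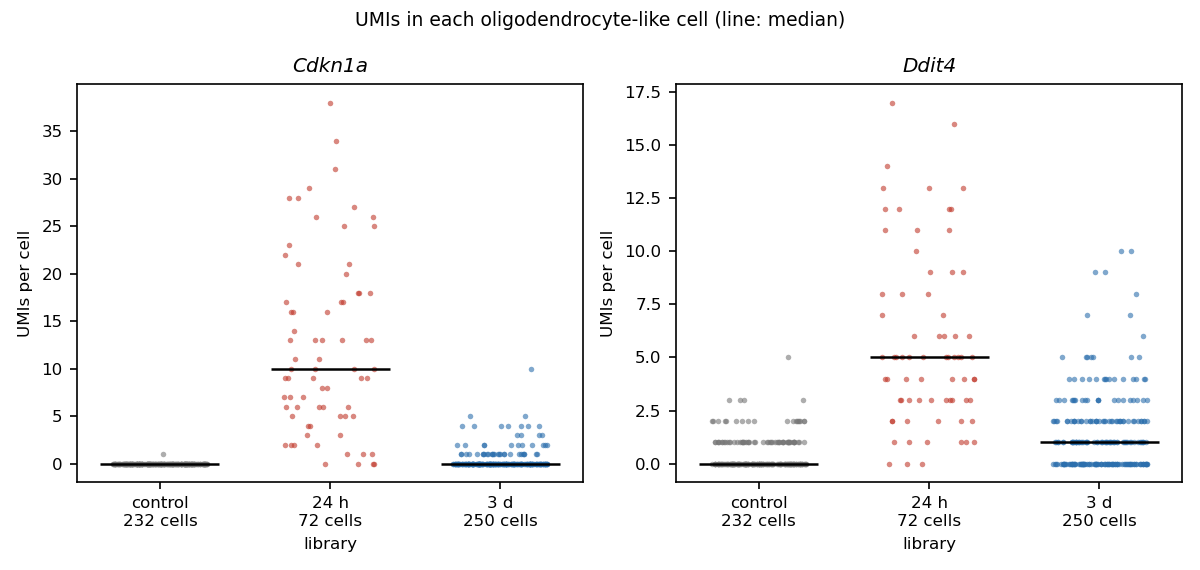
UMIs of Cdkn1a and of Ddit4 in each oligodendrocyte-like cell (vertical axis, UMIs per cell; 1 point per cell, spread sideways) by library, with the median as a line. For Cdkn1a the median was 10 at 24 h and 0 in the other libraries, with 38 as the highest value.

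Ddit4 (also called REDD1) restrains the growth kinase complex mTORC1 and is known to respond to p53, to low oxygen and to glucocorticoids. In oligodendrocyte-like cells it had 109 UMIs in the control (33.1 CPM, 27.2 to 39.9), 412 at 24 h (343 CPM, 311 to 378) and 370 at 3 d (106 CPM, 95.7 to 118). It followed the same order as Cdkn1a, with no overlap between libraries, but from a control level that was well counted. The log2 ratio to the control was 3.37 (3.06 to 3.69) at 24 h and 1.68 (1.37 to 2.00) at 3 d, and from 24 h to 3 d it was −1.69 (−1.90 to −1.48), so 0.310 times the 24 h level was left. Ddit4 thus kept a larger part of its 24 h level at 3 d than Cdkn1a did, with intervals of the 2 ratios that do not overlap. Ddit4 was found in 79 of 232 control cells (34.1%), 69 of 72 cells at 24 h (95.8%) and 154 of 250 cells at 3 d (61.6%). Thinned to 2000 UMIs the shares were 6.49%, 43.7% and 15.2%.

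Sesn1 encodes a sestrin, a stress protein that also restrains mTORC1. Its oligodendrocyte-like sums were 187, 99 and 312 UMIs, or 56.8 CPM (49.0 to 65.6) in the control, 82.4 CPM (67.0 to 100) at 24 h and 89.6 CPM (79.9 to 100) at 3 d. Both libraries after TIA lay above the control and overlapped each other, so the small difference seen at 24 h was also there at 3 d. The log2 ratios were 0.54 (0.17 to 0.90) and 0.66 (0.39 to 0.93). Sesn1 was found in 42.7%, 65.3% and 56.8% of the cells, and in 6.93%, 8.45% and 14.4% of the thinned cells.

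Mdm2, the ubiquitin ligase that marks p53 for breakdown and that p53 itself switches on, had 223, 88 and 269 UMIs in these cells. Its levels of 67.7 CPM (59.1 to 77.2), 73.2 CPM (58.7 to 90.2) and 77.2 CPM (68.3 to 87.0) overlapped in all 3 libraries. The log2 ratio was 0.11 (−0.26 to 0.47) at 24 h and 0.19 (−0.07 to 0.45) at 3 d, and these intervals leave out a doubling. Ccng1, which encodes cyclin G1, a p53 target that feeds back on Mdm2, had 54, 22 and 55 UMIs. Its levels of 16.4 CPM (12.3 to 21.4), 18.3 CPM (11.5 to 27.7) and 15.8 CPM (11.9 to 20.6) overlapped as well, with log2 ratios of 0.16 (−0.63 to 0.90) and −0.05 (−0.62 to 0.51). Gadd45a, a growth arrest and DNA damage gene, was the most thinly counted of the 6, with 38, 24 and 38 UMIs. Its levels were 11.5 CPM (8.17 to 15.8), 20.0 CPM (12.8 to 29.7) and 10.9 CPM (7.72 to 15.0). Its log2 ratio of 0.79 (−0.01 to 1.57) at 24 h reached 0 at its lower end, and at 3 d it was −0.08 (−0.77 to 0.61), so a difference from the control was not detectable at this depth. From 24 h to 3 d it was −0.87 (−1.65 to −0.07). Shares of cells with a UMI were 59.5%, 59.7% and 61.6% for Mdm2, 19.4%, 22.2% and 18.8% for Ccng1 in the control, 24 h and 3 d libraries, and Gadd45a was in 31 of 232 (13.4%), 17 of 72 (23.6%) and 30 of 250 cells. Thinned to 2000 UMIs they were 9.96%, 16.9% and 11.6% for Mdm2, 2.60%, 2.82% and 2.80% for Ccng1, and for Gadd45a 4 of 231, 2 of 71 and 3 of 250 cells.

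In oligodendrocyte-like cells 2 of the 6 genes, Cdkn1a and Ddit4, were at least 2-fold higher at 24 h, where 3.67% of 9297 counted genes were, those whose pair of sums reached 30 UMIs together. None of the 6 was at least 2-fold lower, against 6.81% of those genes. This contrast chose the genes, so nothing is read from that count. At 3 d 2 of the 6, again Cdkn1a and Ddit4, were at least 2-fold higher against 4.62% of 10473 genes, and none was at least 2-fold lower against 1.19%. Both comparisons share the control library.

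**Figure D2:**
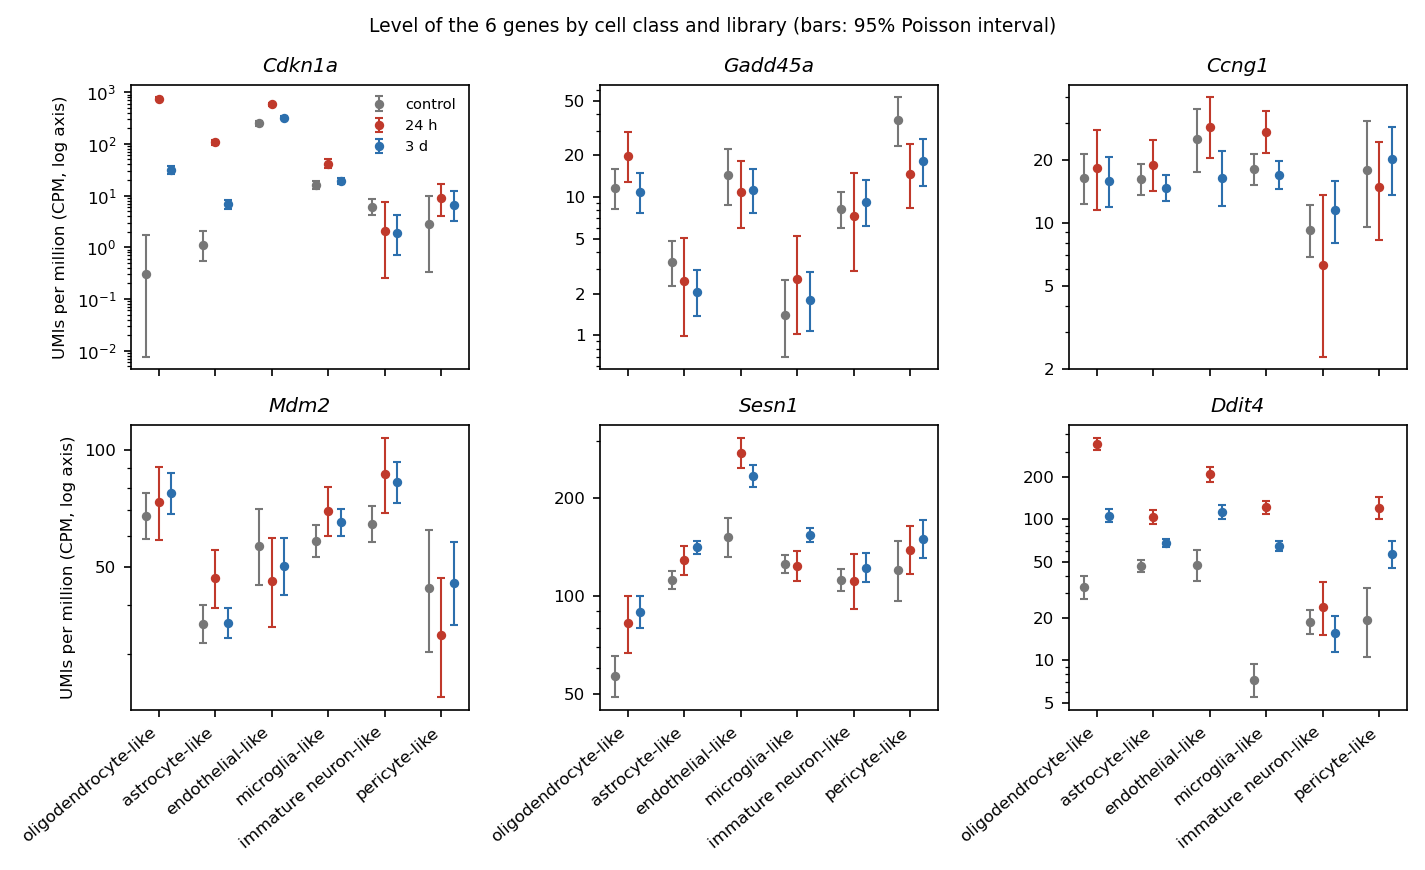
Level of each of the 6 genes (vertical axis, CPM on a log axis) in 6 cell classes (horizontal axis) for the control, 24 h and 3 d libraries, with 95% Poisson intervals as bars. For Cdkn1a the oligodendrocyte-like cells run from 0.304 CPM in the control to 739 CPM at 24 h, and the endothelial-like cells are high in every library.

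Over the 18 sums of 6 classes and 3 libraries, the level of Cdkn1a was highest in oligodendrocyte-like cells at 24 h. Next came the endothelial-like cells, which line the vessels, at 585 CPM (544 to 628) at 24 h, 322 CPM (301 to 344) at 3 d and 248 CPM (223 to 276) in the control. Endothelial-like cells were thus high in every library, and none of these first 4 levels overlaps its neighbour. Astrocyte-like cells at 24 h followed with 107 CPM (94.9 to 119), and then came microglia-like cells at 24 h with 41.6 CPM (34.3 to 49.9) and oligodendrocyte-like cells at 3 d with 31.3 CPM, whose intervals overlap. From the microglia-like cells at 3 d (19.1 CPM) downwards every level overlapped the next in the order. The lowest was that of the control oligodendrocyte-like cells, which overlapped the control astrocyte-like cells at 1.12 CPM (0.539 to 2.07). The same class therefore stood at both ends of the order.

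Astrocyte-like cells showed a similar course of Cdkn1a at a lower level. Their sums were 10, 303 and 95 UMIs, or 1.12, 107 and 6.72 CPM (5.43 to 8.21 for the last), and the log2 ratio was 6.57 (5.67 to 7.64) at 24 h and 2.58 (1.64 to 3.69) at 3 d. All 3 levels were apart. A UMI was found in 1.01%, 29.8% and 5.12% of these cells, and the 5 highest of 238 cells held 38.9% of the UMIs at 24 h. So Cdkn1a was found in a minority of astrocyte-like cells and in nearly all oligodendrocyte-like cells of the same library. The larger astrocyte-like clusters held 131 CPM and 60.2 CPM at 24 h, and with cells classed by markers alone the 24 h ratio was 5.58. In endothelial-like cells the log2 ratio was 1.24 (1.05 to 1.43) at 24 h and 0.38 (0.20 to 0.56) at 3 d, and the share of cells with a UMI was 57.8%, 75.1% and 58.5%. Microglia-like cells held 15.9, 41.6 and 19.1 CPM, with log2 ratios of 1.38 (1.00 to 1.76) and 0.26 (−0.07 to 0.60). A UMI was found in 8.72%, 13.9% and 7.69% of them. Thinned, it was found in 34 of 971, 9 of 268 (3.36%) and 37 of 1200 cells (3.08%), so the higher share at 24 h was not seen at matched depth. Among them 5 of 273 cells held 55.3% of the UMIs at 24 h, and the ratio was 0.49 without the 5 highest cells of each library. A cluster led by Cxcl10, Ccl12, Tnf and Ccl2 held 91.8 CPM of Cdkn1a at 24 h and the other microglia-like cluster 18.6 CPM, so the value of the class rests on few cells.

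Cdkn1a was low in the remaining classes. Immature neuron-like cells held 33, 2 and 6 UMIs, or 5.99, 2.08 and 1.91 CPM, with log2 ratios of −1.52 (−4.63 to 0.44) and −1.65 (−3.19 to −0.37). The latter was lower still without the 5 highest cells of each library, but that step takes away nearly all of the 6 UMIs at 3 d, so nothing is read from it. Pericyte-like cells held 2, 9 and 10 UMIs, with ratios of 1.68 (−0.59 to 4.93) and 1.28 (−0.95 to 4.51). Neither class reached the level of astrocyte-like cells at 24 h. Cells that formed no compared class (fewer than 50 in a library, or no name) held 37.7, 16.5 and 49.5 CPM in dividing progenitor-like cells, 23.0, 76.7 and 75.2 CPM in an erythrocyte-like cluster and 15.8, 67.6 and 29.3 CPM in an unnamed cluster of macrophage and microglia genes. A further unnamed cluster held 27.7, 17.2 and 11.7 CPM from 18, 1 and 4 UMIs, and fibroblast-like cells held 0, 1 and 8 UMIs in 9, 2 and 12 cells.

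Ddit4 was at least 2-fold higher at 24 h in 5 of the 6 classes. Microglia-like cells went from 7.27 CPM (5.50 to 9.41) in the control to 122 CPM (109 to 136) at 24 h and 64.9 CPM (60.0 to 70.1) at 3 d, and the log2 ratios to the control were 4.07 (3.66 to 4.50) at the earlier time and 3.16 (2.77 to 3.58) at the later. The ratio at 24 h was 2.65 (1.85 to 3.56) in pericyte-like, 2.14 (1.75 to 2.55) in endothelial-like and 1.15 (0.93 to 1.37) in astrocyte-like cells. In endothelial-like cells with at most 1 UMI of other classes' markers it was 3.15, and in the 10 and 11 pericyte-like cells classed by markers alone it was 0.36. In all of these classes the 24 h level was the highest of the 3 and the 3 d level lay between, as in oligodendrocyte-like cells. Immature neuron-like cells differed, at 18.7, 24.0 and 15.6 CPM with overlapping intervals and ratios of 0.36 (−0.36 to 1.02) and −0.26 (−0.78 to 0.24). Over the 18 sums the highest level was again that of oligodendrocyte-like cells at 24 h, with the endothelial-like cells at 24 h next at 209 CPM (185 to 236) and no overlap between them. Microglia-like (122 CPM) and pericyte-like cells (121 CPM) at 24 h followed and overlapped, and the lowest level was that of control microglia-like cells.

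At 24 h Cdkn1a and Ddit4 were also the 2 of the 6 genes that were at least 2-fold higher in astrocyte-like cells (2.95% of all counted genes were), in endothelial-like cells (2.48%) and in microglia-like cells (2.42%), where Gadd45a was too thinly counted. In immature neuron-like cells none of the 6 was, against 0.974%. In pericyte-like cells Ddit4 alone was, against 2.59%, with Cdkn1a and Ccng1 under the minimum of 30 UMIs. Since the genes were chosen with these libraries known, the counts describe them and are no sign of a difference between classes, which was not tested. The 24 h library stands behind all of them.

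The other 4 genes ranged less over classes and libraries. Sesn1 lay between 56.8 and 276 CPM, lowest in the control oligodendrocyte-like cells and highest in endothelial-like cells at 24 h, where its log2 ratio was 0.86 (0.61 to 1.11), with 0.62 (0.40 to 0.86) at 3 d. The endothelial-like levels at 24 h and 3 d overlapped each other and no other class. Mdm2 lay between 33.5 and 86.5 CPM and every level overlapped its neighbour in the order. Its highest level and its largest ratios to the control were those of immature neuron-like cells, 0.42 (0.06 to 0.77) at 24 h and 0.36 (0.12 to 0.59) at 3 d, a class in which the Cdkn1a ratios were below 0. The 24 h ratio of Mdm2 was 0.39 (0.09 to 0.69) in astrocyte-like and 0.25 (0.00 to 0.50) in microglia-like cells. Ccng1 lay between 6.25 and 28.9 CPM, again with overlap of all neighbours, and its clearest ratio to the control was 0.59 (0.17 to 1.01) in microglia-like cells at 24 h. From 24 h to 3 d it was −0.68 (−1.09 to −0.27) in that class. Gadd45a lay between 1.40 and 35.9 CPM with overlap of all neighbours and was highest in control pericyte-like cells, where the ratio was −1.28 (−2.30 to −0.31) at 24 h and −0.99 (−1.82 to −0.15) at 3 d. It was thus lower after TIA in the class that had most of it.

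Cdkn1a, Ddit4 and the other members belong to a list of 39 p53 targets. In oligodendrocyte-like cells at 24 h 25 of the 39 were counted, 3 of these 25 were at least 2-fold higher, and none was at least 2-fold lower, against 3.67% and 6.81% of all counted genes. The 3 were Cdkn1a, Ddit4 and Bbc3, which encodes the death-promoting protein PUMA and had 15 UMIs in either sum (1.45, 0.32 to 2.59). Cdkn1a and Ddit4 are members chosen with this contrast known, so the count of 3 is not read against all genes. Among the counted targets outside the 6 genes, Bbc3 alone was at least 2-fold higher. The median log2 ratio of the list was 0.21, with or without the 6 genes, against −0.03 for all 9297 genes. Next came Plk3 (0.85, 0.09 to 1.59), Gadd45a and Ppm1d (0.78, 0.24 to 1.30), and lowest were Apaf1 (−0.90, −2.21 to 0.21), Bax (−0.45, −0.87 to −0.05), Btg2 (−0.40) and Fdxr (−0.34). The intervals of 7 of the 25, among them the members Cdkn1a, Ddit4 and Sesn1, lay above 0 and that of 1, Bax, below. The share of all counted genes with such intervals was not taken, so no shift of the list is read from this. Bax and Apaf1 promote cell death, Plk3 is a stress kinase and Ppm1d a phosphatase that damps p53 signalling. Apart from Cdkn1a, Ddit4 and Bbc3, the counted p53 targets thus lay within 2-fold of the control.

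At 3 d 27 of the 39 targets were counted, 3 were at least 2-fold higher (11.1%) and none lower, against 4.62% and 1.19% of all counted genes. The list median was 0.19, or 0.18 without the 6 genes, against 0.06 for all genes. Of those 3, Cdkn1a and Ddit4 are chosen members and Aen alone lies outside the 6, so the 11.1% is not read against all genes. The highest were Cdkn1a, Ddit4, Aen (1.12, 0.26 to 2.03), Btg2 (0.98), Plk3 (0.83) and Sesn1, and the lowest Apaf1 (−0.48), Eda2r (−0.42), Ddb2 (−0.38) and Bax (−0.34, −0.62 to −0.07). There were 8 intervals above 0, those of Cdkn1a, Ddit4 and Sesn1 among them, and 1 below, again without a share over all genes to set beside them. Aen encodes a nuclease active in cell death. In the other classes at 24 h the list gave 4 of 30 higher in astrocyte-like cells (Bbc3 2.09 and Aen 1.15 beside Cdkn1a and Ddit4) and 1 lower (Btg2, −1.11), against 2.95% and 6.41% of all counted genes. It gave 4 of 25 in endothelial-like cells (Trp53inp1 1.26 and Fas 1.25 as well) and none lower, against 2.48% and 3.58%, and 3 of 28 in microglia-like cells (Plk2 1.38 as well) and none lower, against 2.42% and 2.60%. In pericyte-like cells 2 of 17 were higher (Trp53inp1 2.50 and Ddit4) and Gadd45a was lower, against 2.59% and 2.83%. In immature neuron-like cells none of 25 was higher and 4 were lower, where 10.4% of all counted genes were lower. These were Polk (−2.15 from 2 UMIs at 24 h, counting interval −5.24 to −0.23), Cdkn1a, Bbc3 (−1.14, −2.63 to 0.05) and Zmat3 (−1.12, −2.28 to −0.14), and the intervals of Cdkn1a and Bbc3 include 0. The genes named for these other classes were chosen after their values were seen. Their counts also include members of the 6, so they are not read against the shares of all genes. Differences between classes in these counts were not tested.

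**Figure D3:**
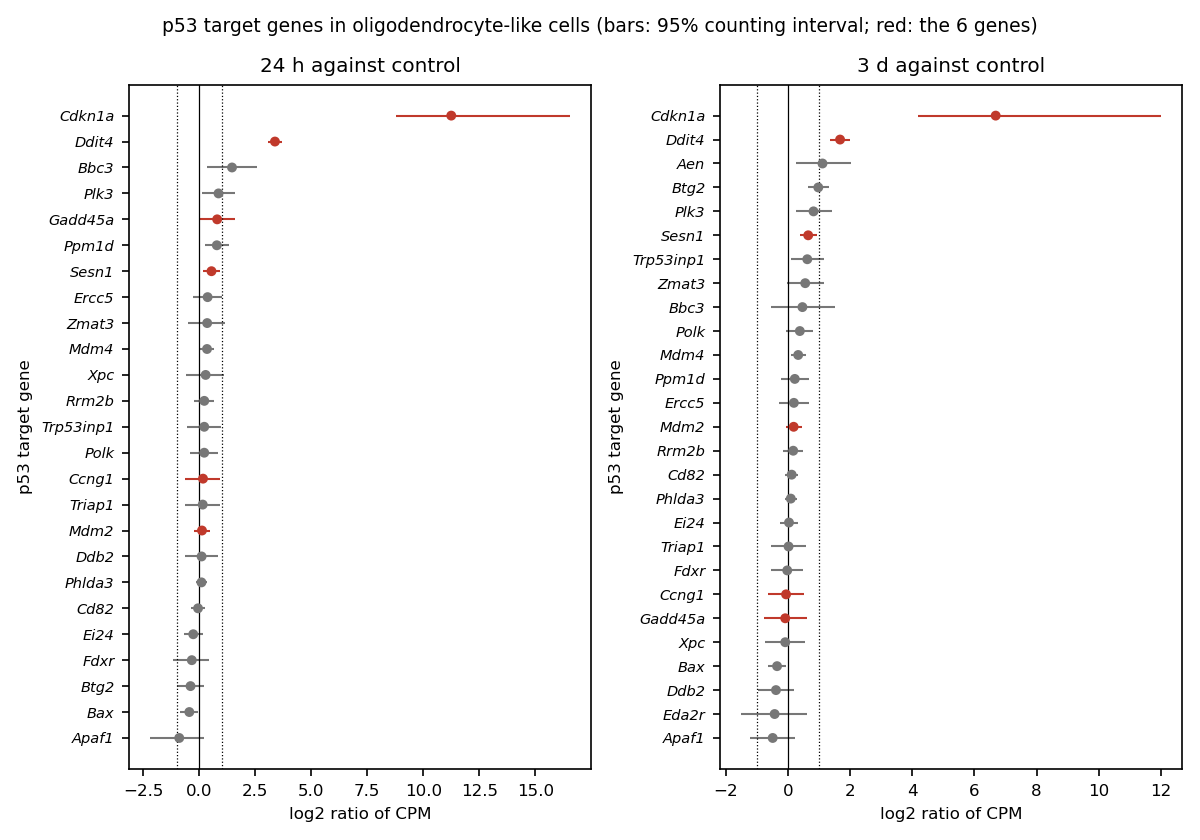
log2 ratio of CPM (horizontal axis) with its 95% counting interval for each counted p53 target in oligodendrocyte-like cells, at 24 h (left) and 3 d (right) against the control; the 6 genes are in red and dotted lines mark a 2-fold difference. Cdkn1a stands at 11.25 and 6.69 and Ddit4 at 3.37 and 1.68, and most of the other genes lie between the dotted lines.

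Genes that signal to and from p53 were counted in the same way at 24 h in these cells. Of 16 genes for p53 and DNA damage signalling 11 were counted, none was at least 2-fold higher and Rad50 was lower (−1.16, −1.96 to −0.43), with a median of −0.02. All counted genes gave 3.67% and 6.81%, so with so few genes these counts are near that background. Highest were H2afx (0.87), Trp53 itself (0.64, 0.05 to 1.21) and Atm (0.24), and Trp53bp1 (−0.84) was next to lowest. Trp53 RNA had 72, 41 and 77 UMIs, or 21.9, 34.1 and 22.1 CPM, so it differed by less than 2-fold. Of 7 CDK inhibitors 4 were counted, and Cdkn1a was the only one at least 2-fold higher at 24 h. Cdkn1c (0.45), Cdkn2d (0.06) and Cdkn1b (0.03) made up the rest, and Cdkn1c reached 1.32 at 3 d. Of 17 cyclins, CDKs and division genes 5 were counted at 24 h. Ccnd2, a D cyclin, had 129 UMIs in the control, 0 at 24 h and 35 at 3 d, and its log2 ratio at 24 h was −3.97 or lower with the sum of 0 set to 3 UMIs. Ccnd3, also a D cyclin (0.72, 0.20 to 1.22), Pcna (0.61) and Rb1 (0.24) were highest and Cdk4 (−0.55) next to lowest. The D cyclins Ccnd2 and Ccnd3 thus differed in opposite directions, and Mki67 and 11 further genes of that list were too scarce to count.

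Further stress lists were set beside the p53 list in oligodendrocyte-like cells, and each 24 h count in them stands against 3.67% of all counted genes at least 2-fold higher and 6.81% lower. Of 26 genes known to respond to glucocorticoids 20 were counted at 24 h, 18 were at least 2-fold higher (90.0%, against 3.67%) and none lower (against 6.81%), with a median of 2.04 against −0.03 for all genes. At 3 d 16 of 20 were higher (80.0%, against 4.62%) and none lower (against 1.19%), with a median of 1.49 against 0.06 for all genes. Plin4 (5.75), Sult1a1 (4.96, 3.29 to 7.30, 3 control UMIs) and Hif3a (4.43) were highest, and Tsc22d3 (−0.02) and Mertk (−0.53) lowest at 24 h. This list was written with earlier results of these libraries known and shares no gene with the p53 list, so its count is a description and says nothing of the source of the Cdkn1a and Ddit4 levels. Of 20 immediate early and dissociation genes 17 were counted, 5 were higher and none lower, led by Fosb (4.06), Fos (2.91) and Dusp1 (2.05), with Hspa1b (−0.90) and Hsp90aa1 (−0.54) lowest and a median of 0.53. Dusp1 is in the glucocorticoid list too, and Btg2 of the p53 list is in the immediate early list. Such genes can respond to the digestion of tissue itself, and their part in the level of Cdkn1a was not tested. Of 18 counted hypoxia genes none differed 2-fold at 24 h, with Hk2 (0.87), Ankrd37 (0.83) and Kdm3a (0.70) highest and Pfkfb3 (−0.91) and Vegfa (−0.52) lowest and a median of 0.26. Of 11 counted genes of the integrated stress response, Ppp1r15a was higher (1.65) and Slc7a11 lower (−3.50, −8.85 to −0.92, 1 UMI at 24 h), with a median of 0.44, Slc3a2 (0.89) and Atf3 (0.72) next highest and Ddit3 (−0.93), whose symbol stands on 2 overlapping gene entries, next lowest. Of 17 counted genes that restrain mTORC1 or serve autophagy, Ddit4 and Ulk1 (1.18) were higher, Sqstm1 (0.73) came next, and Txnip (−0.80) and Foxo1 (−0.37) were lowest, with a median of 0.06. At 3 d the genes at least 2-fold higher were 0 of 11 for p53 signalling, 2 of 5 CDK inhibitors, 0 of 6 in the division list, 7 of 19 immediate early, 1 of 19 hypoxia, 3 of 13 integrated stress response and 3 of 17 mTORC1 genes, against 4.62% of all counted genes. Those at least 2-fold lower at 3 d in these lists were Ccnd2 (−1.96, −2.55 to −1.41) and Hspa1b (−1.02, −1.46 to −0.58), against 1.19%.

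Within the 24 h oligodendrocyte-like cells, Cdkn1a and Ddit4 were each found in nearly all cells, so at full depth the count of cells with both is set by these shares and says nothing of a link. It was 66 of 72 cells (91.7%), with 2 cells that had Cdkn1a alone, 3 Ddit4 alone and 1 neither. Thinned to 2000 UMIs 24 of 71 cells had both (33.8%). The Spearman rho of their UMIs per cell was 0.406 at full depth over 72 cells and 0.189 thinned over 71 cells, and cells share their depth, since Cdkn1a also went with the total UMIs of a cell (rho 0.270). A weak rho in sparse counts is no finding. Cdkn1a was found together with Sesn1 in 45 cells, with Mdm2 in 41, with Gadd45a in 17 and with Ccng1 in 16 of the 72, at full depth, and these counts too follow from the high share of Cdkn1a. Against the summed UMIs of the glucocorticoid list, a comparison chosen after seeing the data, the thinned rho was 0.267. Against the p53 list without the 6 genes it was 0.0822. The latter list was counted more thinly. At full depth its highest gene at 24 h, Phlda3, had 174 UMIs, against 2039 for Sgk1 of the glucocorticoid list. Both rho values are given for this class alone. They are therefore not compared, and say nothing of which list Cdkn1a goes with. At 3 d 44 of 250 cells had both Cdkn1a and Ddit4 (17.6%), 8 Cdkn1a alone and 110 Ddit4 alone, while thinned 3 cells had both and 15 Cdkn1a alone. Most 3 d cells with Cdkn1a thus also had Ddit4 at full depth but not when thinned. Both counts depend on depth and on the share of all cells with Ddit4, so they say nothing of a link. The rho of the 2 genes at 3 d was 0.326 at full depth and 0.0096 thinned.

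The genes whose level over the 18 class and library sums was most like that of Cdkn1a were sought among 16607 genes by Pearson's r of log2(CPM + 1). These were Bcl2l1 (r = 0.843), Nfkbia (0.842), Gmnn (0.836), Maff (0.835), Tnfrsf12a (0.829), Csrnp1 (0.811), Mvb12a (0.795), Rnf125 (0.795), Aph1a (0.781) and Ing2 (0.778). Bcl2l1 encodes a protein that protects from cell death and Nfkbia, which is also in the glucocorticoid list, an inhibitor of NF-κB. In oligodendrocyte-like cells Bcl2l1 had 168, 576 and 297 CPM and Nfkbia 24.6, 275 and 112 CPM, so both were highest at 24 h and lay between at 3 d. Among the other members, r with Cdkn1a was 0.683 for Ddit4, 0.563 for Ccng1, 0.481 for Sesn1, 0.0906 for Gadd45a and 0.0201 for Mdm2. The sums share 3 libraries and the mice and depth behind them, so r is a description.

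Markers of most other classes were no higher in the oligodendrocyte-like cells at 24 h than in the control. All 8 astrocyte markers had UMIs in the control and 7 of 8 at 24 h, with Aqp4 at 0, and they summed to 432, 206 and 629 CPM, led by Slc1a2 in the control and Slc1a3 later. Of 8 endothelial markers 6 had UMIs at 24 h, with Slco1a4 and Itm2a at 0, and the list summed to 83.8, 9.99 and 148 CPM, led by Cldn5 at 24 h. The markers of endothelial cells, the other class high in Cdkn1a, thus had 12 UMIs beside the 888 UMIs of Cdkn1a. The microglia markers Cx3cr1, P2ry12, Csf1r, Sall1, Siglech, Tmem119 and Fcrls all had UMIs in each library and summed to 237, 153 and 378 CPM, led by Cx3cr1. The 7 pericyte markers summed to 24.6, 8.32 and 106 CPM, led by Vtn, with Rgs5, Abcc9 and Pdgfrb at 0 at 24 h. The 8 oligodendrocyte precursor markers summed to 477, 397 and 449 CPM, led by Sox10, which mature cells share, and Pdgfra, Cspg4, C1ql1 and Gpr17 were at 0 at 24 h. The 8 immature neuron markers summed to 118, 261 and 135 CPM, led by Tubb3, with Dcx, Sox11, Dlx1, Dlx2 and Cd24a at 0 at 24 h. The lists of border macrophages, smooth muscle, fibroblasts and mature neurons were at or under 1.66 CPM at 24 h, dividing progenitors at 3.33 CPM, ependymal cells at 19.1 CPM, all from Foxj1, and blood cells other than erythrocytes and choroid plexus at or under 0.832 CPM. The part of such RNA in the Cdkn1a level was not tested. With cells limited to those with at most 1 UMI of other classes' markers, which left 160, 40 and 142 cells, Cdkn1a had no UMI in the control and its log2 ratio was at least 9.22 at 24 h and at least 4.43 at 3 d.

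In the mouse genome (GRCm38) Cdkn1a (ENSMUSG00000023067) lies at chr17:29090976-29100727 on the plus strand and overlaps a gene on the minus strand, AC167363.2. Gadd45a (ENSMUSG00000036390, chr6:67035096-67037457, minus) overlaps E230016M11Rik on the other strand, and Sesn1 (ENSMUSG00000038332, chr10:41809935-41908424, plus) overlaps 9930024M15Rik on its own strand. The Sesn1 level is uncertain to the extent that UMIs of its partner could be given to it. Ddit4 (ENSMUSG00000020108, chr10:59949669-59951834, minus), Mdm2 (ENSMUSG00000020184, chr10:117688875-117710758, minus) and Ccng1 (ENSMUSG00000020326, chr11:40748552-40755311, minus) overlap no other gene. Sesn1, Ddit4 and Mdm2 share chromosome 10 but are not neighbours.

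The promoter windows of the members were read from RefSeq (GRCm38.p6), 250 bases before each start, with 8 windows for the 6 genes, and motifs were sought on both strands. Of 32851 such windows 7.13% hold a p53 half-site, a stretch of 10 bases, and 0.0639% (21 windows) hold a pair of half-sites 0 to 13 bases apart. The first Cdkn1a window was 1 of these 21, with half-sites at chr17:29090906-29090915 and chr17:29090928-29090937. Gadd45a, Ccng1, Mdm2 and the second Sesn1 window held single half-sites and no pair, and the Ddit4 window held none. With 1 letter off and no gap, a search chosen after seeing the data, the pair was in 0.0457% of windows, among them Cdkn1a at chr17:29090928-29090947, which overlaps its second half-site. The glucocorticoid core ACANNNTGT (5.84% of windows) and half-site AGAACA (16.1%) were in none of the 8 windows. The hypoxia letters ACGTG (16.6%) were in the Ddit4 window at chr10:59951953-59951957, and the E-box CACGTG (6.02%), which contains them, was not. A match is a description of letters and no sign that a factor was bound, and an element may lie outside these windows. The windows of the genes that differed most between libraries are printed 5′ to 3′ without the bases that lie inside the gene, Cdkn1a from chr17:29090729-29090975 on the plus strand with the half-sites and the pair with 1 letter off in capitals, and Ddit4 from chr10:59951835-59952020 on the minus strand with ACGTG in capitals.
Cdkn1a: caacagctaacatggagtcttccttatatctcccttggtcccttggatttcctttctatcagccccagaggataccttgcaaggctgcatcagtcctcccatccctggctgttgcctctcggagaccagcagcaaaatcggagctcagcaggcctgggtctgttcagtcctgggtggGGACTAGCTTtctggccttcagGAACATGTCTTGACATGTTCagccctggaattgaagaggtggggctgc
Ddit4: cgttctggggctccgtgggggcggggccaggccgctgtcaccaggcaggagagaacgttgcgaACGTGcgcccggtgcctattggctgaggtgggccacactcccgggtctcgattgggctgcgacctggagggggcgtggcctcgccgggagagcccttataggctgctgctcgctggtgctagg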

How the data were processed

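The deposited counts are whole UMI counts per gene and cell, which the authors made as filtered matrices of called cell barcodes, aligned to mm10 with GENCODE vM23, without normalization. The file headers and the methods of the study name Cell Ranger 7.1.0, while the submitters' processing notes name 3.1.0. No cell filter had been applied after that step.

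Cells with at least 500 detected genes and at most 7% mitochondrial UMIs were kept. They were clustered in Seurat 5.3.0 (R 4.3.3, Matrix 1.6.5) on genes found in at least 3 cells, with 2000 variable features, UMIs per cell and mitochondrial share regressed out, 20 principal components and resolution 0.5. A cluster could be named when at least 3 markers of a type were found in at least 10% of its cells and at least 2-fold over the rest. The type with the most such markers was taken. The cluster stayed unnamed where its genes of highest fold held more markers of another type, or held none of its own at low depth. Clusters with both Mki67 and Top2a among these markers were named dividing progenitor-like. Unnamed clusters held 760 cells. The 6 classes that had 50 cells or more in each library were compared. For 1 alternative, Scrublet (scanpy 1.11.5) called doublets. Other steps used Python 3.11.15, numpy 2.4.6, scipy 1.17.1 and pandas 2.3.3.

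Raw UMIs were summed per class and library and scaled to 1000000 UMIs (CPM). With 1 library per group no test was made. Sums have exact Poisson intervals, shares Clopper-Pearson intervals and log2 ratios of CPM exact conditional binomial intervals, all at 95% and for counting error only. A sum of 0 was set to 3 UMIs, so that the ratio is a bound, and a pair of sums at or under 3 got no ratio. Genes of 9 lists were counted as different at 2-fold or more when their sums reached 30 UMIs together. Shares of cells were also taken after thinning without replacement to 2000 UMIs per cell.

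The genes named are the 6 members, the 10 genes with the highest Pearson r with Cdkn1a over the 18 sums, the 6 highest and 4 lowest p53 targets in oligodendrocyte-like cells at each time, the 3 highest and 2 lowest of each other list at 24 h, the 10 highest and 5 lowest ratios of all genes there at 24 h, and markers. The members and the lists were chosen with earlier results of these data known. Coordinates are from GENCODE M21 on GRCm38, and promoter windows from RefSeq. The counting and interval steps were tested on simulated data. The summed levels of the whole microglia and oligodendrocyte marker lists are not reported here.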

Additional observations from a re-analysis of the deposited data

Results flagged for a closer look

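The Cdkn1a difference between 3 d and the control had opposite directions in different classes. The log2 ratio was −1.65 in immature neuron-like cells, from 33 and 6 UMIs, against 6.69 in oligodendrocyte-like cells, 2.58 in astrocyte-like cells and 0.38 in endothelial-like cells, and none of these counting intervals includes 0. The difference between classes was not tested, since each group has 1 library. Cells over the mitochondrial limit, which no comparison used, also held Cdkn1a. In those whose oligodendrocyte marker level reached that of the named cells, a set chosen after seeing the data, Cdkn1a was at 781 CPM in 23 cells at 24 h and 28.1 CPM in 39 cells at 3 d, with no UMI in 23 control cells. A UMI was found in 17 of the 23 cells at 24 h (73.9%) and in 5 of the 39 at 3 d (12.8%). These levels are near those of the cells kept, and the difference between the sets was not tested.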

How the results depend on the processing

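No paired analysis was possible because each group has 1 library and the labels give no replicate numbers. No result changed its direction under the alternatives that were run for the Cdkn1a and Ddit4 ratios in oligodendrocyte-like cells. Over 12 settings each, the log2 ratio of Cdkn1a ran from 9.22 to 11.57 at 24 h, from 4.43 to 7.09 at 3 d and from −4.80 to −4.48 between them, and that of Ddit4 from 3.27 to 3.42, from 1.55 to 1.83 and from −1.72 to −1.52. The lowest Cdkn1a ratios to the control are bounds, since the single control UMI was lost with at most 1 UMI of other markers, without doublets and without the 5 highest cells. The share of cells with Cdkn1a followed the threshold and the depth. In the control it was 0% (from 0.431%) at 2 or more UMIs, without doublets, and thinned to 2000 or 1000 UMIs. At 24 h it was 63.4% thinned to 2000 UMIs and 44.4% thinned to 1000, from 94.4%, and at 3 d it was 10.0% at 2 or more UMIs, 7.20% thinned to 2000 and 2.00% thinned to 1000, from 20.8%. Thinning leaves fewer UMIs by construction. Cells with both Cdkn1a and Ddit4 at 24 h were 33.8% thinned and 91.7% at full depth. At 1.5-fold in place of 2-fold, 6 p53 targets in place of 3 were higher at 24 h and 7 in place of 3 at 3 d, and under the other settings these counts ran from 2 to 4. The glucocorticoid counts ran from 12 to 18 and from 13 to 17. Of 1105 values for the 102 other ratios, 1072 lay within the interval of the reported ratio, and 33 outside it. Of the 33, 6 had the other sign, each for a reported ratio under 2-fold. The cause of these shifts was not tested. Median-ratio scaling moved the median of all genes by at most 0.07 (log2) in any class. Markers alone left few pericyte-like cells, 10, 11 and 23. The 24 h oligodendrocyte-like class rests on 72 cells, and depth limits Gadd45a and Ccng1 most.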
